A study of Mus musculus with 2 samples.

Results

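The genes described here make up the DNA damage response and its repair pathways: 45 genes listed by symbol and taken by that symbol alone, with no value of these arrays in the rule. The list itself was chosen with earlier results of these data known. A platform symbol matched 42 of the 45, each through 1 probe, among 19505 genes measured in all. The other 3 genes, Ercc2, Parp1 and Trp53, were not analysed here. The arrays held RNA of mouse lung cells sorted for an SPC/GFP reporter and for EpCAM, a surface protein of epithelium; SPC is surfactant protein C, which is made by alveolar type 2 cells. One group consisted of control mice kept in air and the other of mice kept in smoke, both for 3 months, with 1 Affymetrix Clariom S Mouse array each. Strain, age, sex, the count of animals per sample, pooling and the hour of collection are not stated in these sources. A single array a group leaves every difference without replicates, so no SD or p-value is given and each comparison is between these 2 samples only.

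Cells remove DNA lesions by several routes. Nucleotide excision repair cuts out bulky adducts, such as those that polycyclic hydrocarbons of tobacco smoke leave on guanine, while base excision repair removes oxidised, alkylated or deaminated bases. Breaks of both strands are rejoined by homologous recombination or by end joining, and the kinases ATM and ATR pass the alarm to the checkpoint kinases and to p53. Much of this response is carried by changes of existing proteins, so transcript signals show only how much of each message was present.

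Most repair genes had close signals on both arrays. A gene was called higher or lower when it differed at least 2-fold and its brighter array reached 4.57, the median log2 signal of all probes. Of the 42 measured genes 33 passed that level, and 9 lay below it on both arrays. Among the 33, Ercc6 was at least 2-fold higher in smoke, Xpa and Chek1 were at least 2-fold lower, and 30 were within 2-fold. The same rule called 6.41% of all 10419 genes above the level (3.94% higher and 2.48% lower), against 9.09% of the repair genes, so the share called was near the background. Over the 33 genes the median log2 difference, smoke minus air, was 0.14, and it was 0.06 over all genes above the level. By sign alone 23 of the 33 were higher in smoke and 10 lower, beside 54.3% of all genes higher. That split was 19 and 14 after quantile normalization, where 48.2% of all genes were higher. For 15 of the 33 the log2 difference was no larger than 0.25 in either direction.

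Each gene was also set against the 200 genes nearest to it in mean signal, whose differences had medians of -0.10 to 0.17 and robust SDs (a scaled median absolute deviation) of 0.40 to 0.59 around the 33 genes. That spread holds measurement error and real differences together. Only Xpa, Chek1 and Ercc6 lay 2 or more robust SDs from the median of their neighbours, 3 of 33, while 7.87% of all genes above the level did.

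**Figure D1:**
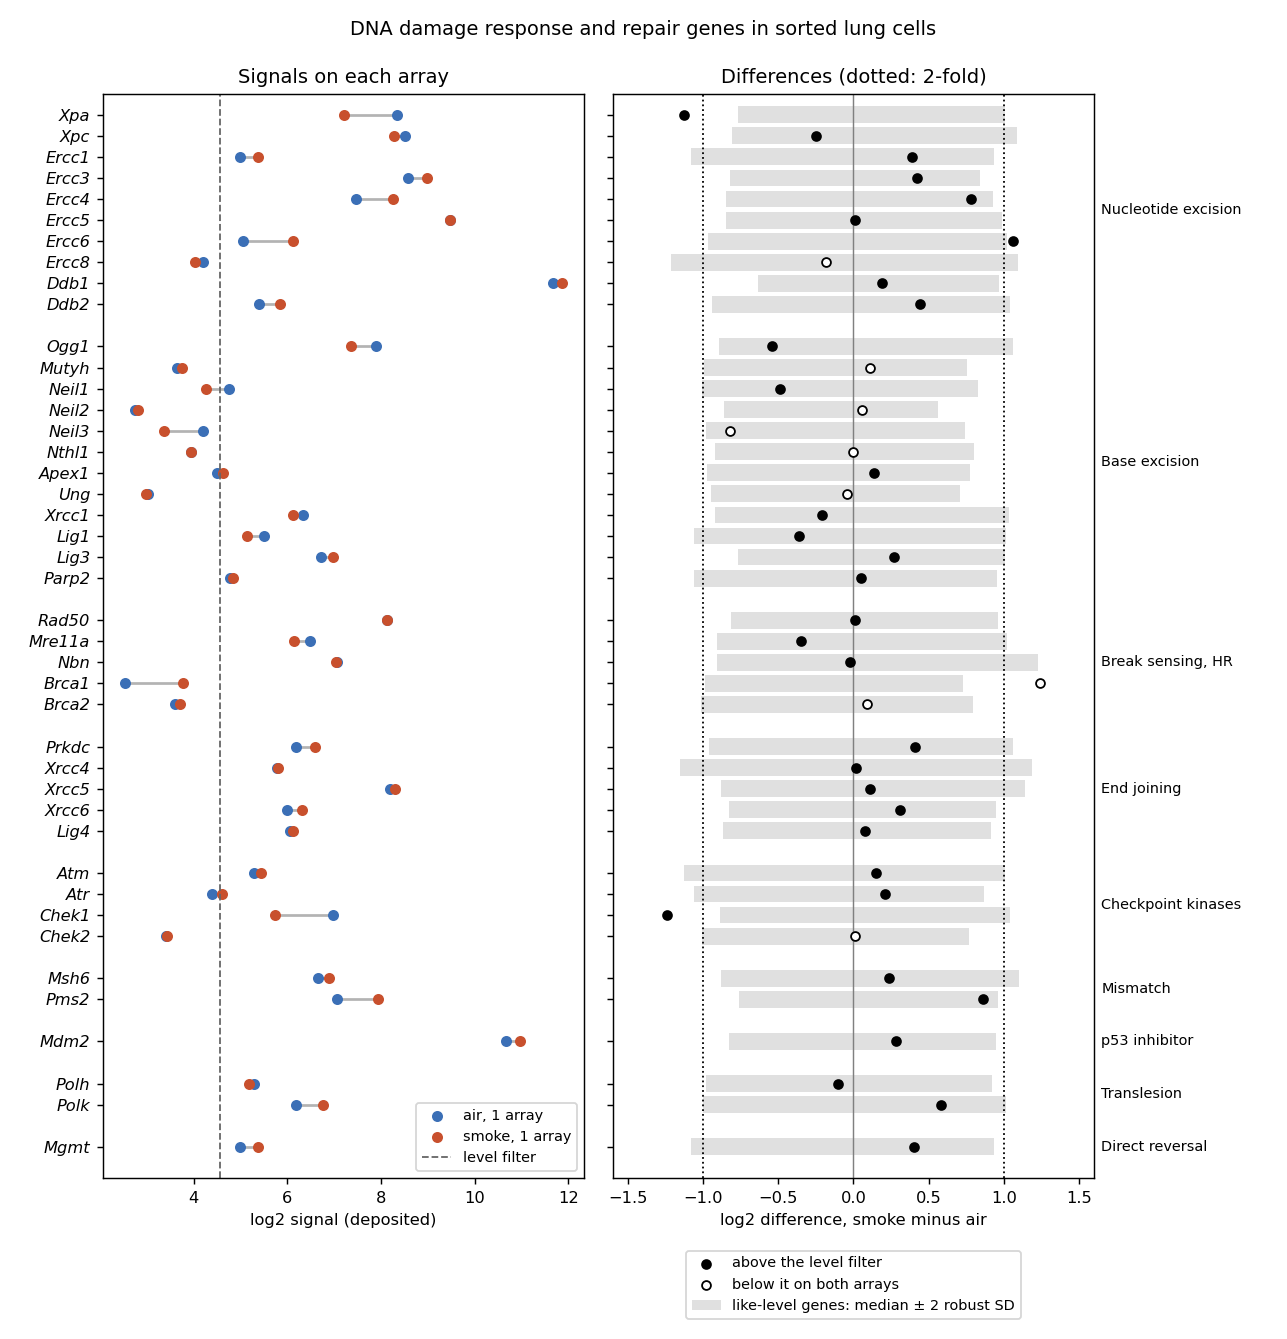
Left, the deposited log2 signal of each of the 42 measured genes on the air array (blue) and the smoke array (red), with the level of 4.57 dashed; signals of different genes come from different probes and are not comparable with each other. Right, the log2 difference, smoke minus air, over a grey band of the median ± 2 robust SD of the 200 genes nearest in mean signal; Xpa (-1.13) and Chek1 (-1.24) lie to the left of their bands and Ercc6 (1.06) just past the right edge of its band, while Brca1 (1.24, open circle) was below the level on both arrays.

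**Figure D2:**
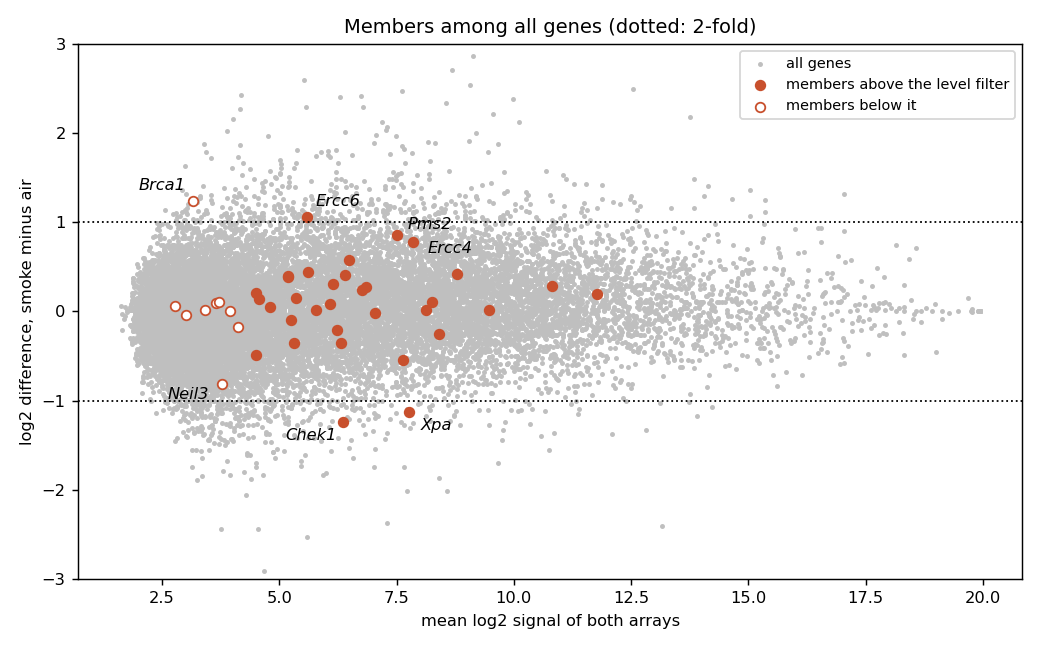
The log2 difference, smoke minus air, of every measured gene (grey) and of the repair genes (red, open where below the level on both arrays) against the mean log2 signal of both arrays; 11 genes that differed by more than 3 are outside the plotted range. The repair genes lie within the cloud of all genes, with Xpa, Chek1, Ercc6 and Brca1 outside the dotted 2-fold lines.

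Nucleotide excision repair held Xpa and Ercc6, called in opposite directions. Of its 9 genes above the level, 7 were higher and 2 lower in smoke (6 and 3 after quantile normalization or centring by level, Ercc5 changing sign), with a median log2 difference of 0.39. Of all genes above the level 54.3% were higher (48.2% after quantile normalization), and their median as deposited was 0.06. Xpa encodes the scaffold protein that verifies the lesion and positions the nucleases. Its log2 signal was 8.34 in air and 7.21 in smoke (log2 difference -1.13), or 2.19-fold lower. The smoke array was the low one, and 3 of the 200 genes of like signal were lower by as much. Ercc6 encodes CSB, the ATPase that starts transcription-coupled repair where RNA polymerase has stalled. It stood at 5.06 in air and 6.12 in smoke (log2 difference 1.06), or 2.08-fold higher, and 4 of its 200 neighbours were higher by as much. The air signal of Ercc6 was close to the level filter, and with an offset of 16 added on the linear scale its log2 difference was 0.79, below 2-fold, whereas that of Xpa was -1.05.

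The upstream sequences of these 2 genes are shown because they are the excision repair genes past 2-fold and are used for the motif counts further on. They are the 250 bases before the RefSeq start, 5′ to 3′ on the gene's strand, from build GRCm38.p6; Xpa lies on the minus strand at chr4:46196312-46196561 and Ercc6 on the plus strand at chr14:32513271-32513520. Capitals mark a CCAAT box in Xpa and the E-box CACGTG in Ercc6.
Xpa: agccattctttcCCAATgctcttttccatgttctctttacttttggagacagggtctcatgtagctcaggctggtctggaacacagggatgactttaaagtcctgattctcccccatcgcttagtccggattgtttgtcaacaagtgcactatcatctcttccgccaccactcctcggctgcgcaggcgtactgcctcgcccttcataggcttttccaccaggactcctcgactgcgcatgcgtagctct
Ercc6: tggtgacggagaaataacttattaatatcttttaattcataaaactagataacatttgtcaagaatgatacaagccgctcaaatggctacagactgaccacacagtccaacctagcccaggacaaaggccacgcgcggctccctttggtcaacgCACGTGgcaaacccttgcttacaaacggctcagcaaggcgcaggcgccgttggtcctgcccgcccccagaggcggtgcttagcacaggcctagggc

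The proteins that act with Xpa and Ercc6 had messages within 2-fold on the 2 arrays. Ercc8, which encodes CSA, the ligase component that acts with CSB, was below the level, at 4.21 in air and 4.03 in smoke. Xpc, the damage sensor of the whole genome, was at 8.52 and 8.27. Ddb1 and Ddb2 form the UV-damage binding complex that hands lesions to XPC. Ddb1 stood at 11.68 in air and 11.87 in smoke. Ddb2, itself a p53 target, stood at 5.40 and 5.84. The nuclease subunits that cut on the 5′ side of the lesion, Ercc1 and Ercc4 (XPF), both had higher smoke signals: Ercc4 was at 7.47 in air and 8.25 in smoke (log2 difference 0.78). Ercc1 was at 4.99 and 5.38, a log2 difference of 0.39. Ercc5 (XPG), which cuts on the other side, stood at 9.47 and 9.48. Ercc3, the XPB helicase of TFIIH, was at 8.57 in air and 8.99 in smoke. Apart from Xpa and Ercc6, every nucleotide excision repair gene described so far lay within 2 robust SDs of its neighbours. Further genes of this pathway are given below, among them Rad23b (-2.57) and Uvssa (2.03).

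Base excision repair had 7 of 12 measured genes above the level, 3 higher and 4 lower in smoke, none past 2-fold, with a median log2 difference of -0.21. Ogg1 encodes the glycosylase for 8-oxoguanine, the common oxidised base. Its signal was 7.90 in air and 7.36 in smoke (log2 difference -0.54), and 22 of 200 neighbours were lower by as much. Neil1, a glycosylase for oxidised pyrimidines, stood at 4.75 in air and at 4.26, under the level, in smoke. For Neil1, 36 of 200 neighbours were lower by as much. Ogg1 and Neil1, the only glycosylases of the list above the level, both had the lower signal in smoke, each by less than 2 robust SDs. Of all genes above the level 44.7% were lower. Mutyh (3.65 in air, 3.76 in smoke), Neil2 (2.75 and 2.81), Nthl1 (3.95 on both arrays) and Ung (3.02 and 2.98), the other glycosylases of the list, were below the level. Neil3, a glycosylase of dividing cells, was also below it, at 4.19 and 3.37; its log2 difference of -0.82 was -0.38 with the offset.

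The genes named here for the steps after base removal were within 0.36 on the log2 scale. Polb, of a further list given below, differed by 0.77. Apex1, the endonuclease that cuts at the emptied site, was just above the level, at 4.49 in air and 4.63 in smoke. The scaffold Xrcc1 stood at 6.34 and 6.13 and its ligase partner Lig3 at 6.71 and 6.98. Lig1, the ligase of replication and of long-patch repair, was at 5.50 and 5.14, a log2 difference of -0.36. Parp2, a sensor of nicked DNA, was at 4.78 and 4.83. The XRCC1 and ligase 3 messages thus differed by -0.21 and 0.27, in opposite directions and both inside the spread of like-level genes.

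Among genes of strand break repair, the 3 subunits of the MRN complex, which binds broken ends, were above the level. Rad50 stood at 8.12 in air and 8.13 in smoke, and Nbn at 7.06 and 7.04. Mre11a, the nuclease of the complex, stood at 6.49 and 6.14, a log2 difference of -0.35. Brca1, the recombination mediator, was at 2.53 in air and 3.77 in smoke. Its log2 difference of 1.24 was the largest on the higher side among the 42 genes, but both values lay below the level, so it was not called; 0 of 200 neighbours were higher by as much, 2.27% of all genes below the level differed at least 2-fold, and with the offset the difference was 0.44. Brca2, which loads the recombinase onto DNA, was at 3.61 and 3.70. The messages of Brca1 and Brca2 could thus not be placed above the level on either array. Of a further list of recombination genes given below, 9 of 17 measured were above it.

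All 5 genes of non-homologous end joining were above the level and had slightly higher signals in smoke (3 of 5 after quantile normalization), with a median log2 difference of 0.11 and a range of 0.02 to 0.41. Of all genes above the level 54.3% were higher (48.2% after quantile normalization). Prkdc, the catalytic subunit of the DNA-dependent kinase, was at 6.19 in air and 6.60 in smoke. The Ku subunits that hold the ends, Xrcc6 (Ku70) and Xrcc5 (Ku80), were at 6.00 and 6.31 and at 8.19 and 8.30. Xrcc4 stood at 5.78 and 5.80, and the ligase it supports, Lig4, at 6.05 and 6.13. None of the 5 was 1 robust SD from its neighbours. Xrcc5 was at -0.01 and Xrcc4 at -0.035 after quantile normalization, and after centring by level they were at -0.02 and 0.

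Chek1, which encodes CHK1, the kinase that ATR activates at stalled replication forks, was, of the 42 genes, the one furthest below its air signal in smoke. Its log2 signal was 6.97 in air and 5.73 in smoke (log2 difference -1.24), or 2.36-fold lower, and 0 of 200 genes of like signal were lower by as much. It stayed below -1 with the offset (-1.03), after quantile normalization (-1.32) and after centring by level (-1.31). Its upstream kinase Atr was at 4.39 and 4.60, just above the level. The parallel pair differed little: Atm stood at 5.28 in air and 5.43 in smoke, and Chek2, below the level, at 3.42 and 3.43. A call was thus made for Chek1 alone, of the 3 kinases above the level. So few genes give no share to set beside the 6.41% of all genes above the level.

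Proliferation genes were within 2-fold, with more of them lower than higher in smoke. Of 16 listed proliferation genes above the level, 12 were lower and 4 higher, beside 44.7% of all genes lower, 0 passed 2-fold, and the median log2 difference was -0.14; over all 26 measured it was -0.28. The summed signal of the 26 was 10.09 in air and 10.00 in smoke on the log2 scale. With centring by level the split was 11 lower and 5 higher. Mki67, the Ki-67 antigen, was at 7.32 and 6.65, and Top2a, the topoisomerase of mitotic chromosomes, at 5.86 and 5.39. The largest difference of the list was that of the mitotic kinase Aurka, -0.93. Repair genes with roles in replicating cells went both ways: beside Chek1 (-1.24), Lig1 (-0.36) and Neil3 (-0.82) stood Brca1 (1.24), Brca2 (0.09) and Msh6 (0.24), of which Neil3, Brca1 and Brca2 were below the level. These 6 were picked after their values were seen, and the part of dividing cells in them was not tested. In bulk samples, fewer cells of a type and less RNA per cell cannot be told apart.

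The Chek1 upstream sequence is shown because no listed gene was lower in smoke by more (chr9:36726659-36726908, minus strand, GRCm38.p6); none of the 6 motifs listed further on lay in these 250 bases, so it has no capitals. The second line is the site after the start (chr9:36726609-36726632) where capitals mark TTCCCGC, a core of E2F sites, read on the opposite strand. E2F factors switch on genes of DNA replication.
Chek1 upstream: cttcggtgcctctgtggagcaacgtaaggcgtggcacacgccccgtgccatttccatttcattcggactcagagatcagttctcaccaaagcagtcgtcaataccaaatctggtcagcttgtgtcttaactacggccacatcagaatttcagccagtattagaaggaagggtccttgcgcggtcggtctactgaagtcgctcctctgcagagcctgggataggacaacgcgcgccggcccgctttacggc
Chek1 site: gacgcaagcaggttttgGCGGGAA

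Mismatch repair was represented by 2 genes, both higher in smoke. Pms2, a subunit of the endonuclease that follows mismatch recognition, stood at 7.07 in air and 7.93 in smoke (log2 difference 0.86), or 1.82-fold, with 14 of 200 neighbours higher by as much. Msh6, of the recognition complex, stood at 6.65 and 6.89. Among the 33 genes above the level, Pms2 came closest to 2-fold without reaching it, followed by Ercc4.

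Of the translesion polymerases, which copy past damaged bases, Polk stood at 6.19 in air and 6.77 in smoke (log2 difference 0.58), and Polh at 5.29 and 5.19. Polymerase kappa, the product of Polk, is known for passing hydrocarbon adducts on guanine, and polymerase eta for passing UV dimers. Mgmt, the protein that takes alkyl groups directly off guanine, was at 4.98 and 5.38, a log2 difference of 0.40. None of these lay 2 robust SDs from its neighbours.

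Mdm2, the ligase that degrades p53 and is itself a p53 target, was at 10.68 in air and 10.96 in smoke (log2 difference 0.28). Of 16 other p53 targets above the level (22 measured of 24 listed), 10 were higher, 6 lower and 0 past 2-fold, with a median of 0.28; over all 22 measured the median was 0.09. The largest difference was that of the death receptor gene Fas, at 5.55 in air and 6.54 in smoke (log2 difference 0.99). Gadd45a, a stress sensor, was at 8.13 and 8.57. Cdkn1a, the p21 inhibitor of cyclin-dependent kinases, was lower, at 12.23 and 11.53, a log2 difference of -0.70. Cdkn1a and Fas lay -2.20 and 2.03 robust SDs from the median of their neighbours, 2 of the 16 targets in opposite directions, beside 7.87% of all genes.

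The rest of the repair pathways also had differences within 2-fold. Of 105 further repair genes listed by role, 94 were measured and 68 were above the level; 40 were higher and 28 lower (35 and 33 after quantile normalization), with a median of 0.10 and 0 past 2-fold. The background share past 2-fold was 6.41%. At 1.5-fold 26.5% of the 68 passed (12 higher, 6 lower), beside 23.7% of all genes and 15.2% of the 33 repair genes above (3 higher, which were Ercc6, Pms2 and Ercc4, and 2 lower, Chek1 and Xpa). Several of these genes lay just inside 2-fold, and 3 of the 68 lay 2 or more robust SDs from their neighbours: Rad23b (-2.57), Trp53bp1 (2.02) and Uvssa (2.03), the last a factor of transcription-coupled repair named after its values were seen. Rad23b, the partner that stabilises XPC, was at 12.82 in air and 11.85 in smoke (log2 difference -0.97). Trp53bp1, the chromatin reader 53BP1 that favours end joining, was at 4.32 and 5.29, a log2 difference of 0.97. Ube2a, a ubiquitin-conjugating enzyme of the RAD6 pair that acts in damage tolerance, was at 6.37 and 7.36, a log2 difference of 0.99, in a translesion and template switch list with 7 of 9 genes higher (6 after quantile normalization). Rad23b and Trp53bp1 passed 2-fold after quantile normalization (-1.11 and 1.03) and after centring by level (-1.09 and 1.02). Gtf2h3, a TFIIH subunit chosen here after its values were seen, passed after centring alone (1.01, from 4.91 in air and 5.86 in smoke).

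Within each of the other lists the gene with the largest difference was within 2-fold. Polb, the gap-filling polymerase of base excision repair, was at 6.52 in air and 7.29 in smoke, with 7 genes of that list above the level (4 higher, 3 lower, median 0.03; 3 and 4 after quantile normalization). Dna2, a nuclease of replication and end resection, was at 5.51 and 4.63, with 9 recombination genes above the level (6 higher, 3 lower, median 0.17; 5 and 4 after quantile normalization). Fance, of the Fanconi core complex that acts on crosslinks, was at 7.39 and 6.60, with 7 genes of its pathway above the level (4 higher, 3 lower, median 0.09; 5 and 2 after quantile normalization). The gap-filling polymerase of end joining, Poll, stood at 5.37 and 5.72, and Alkbh3, a demethylase of DNA and RNA, at 6.62 and 6.97. Damage signalling adaptors were split evenly, 7 higher and 8 lower of 15. Further nucleotide excision genes were split 8 and 9 of 17.

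**Figure D3:**
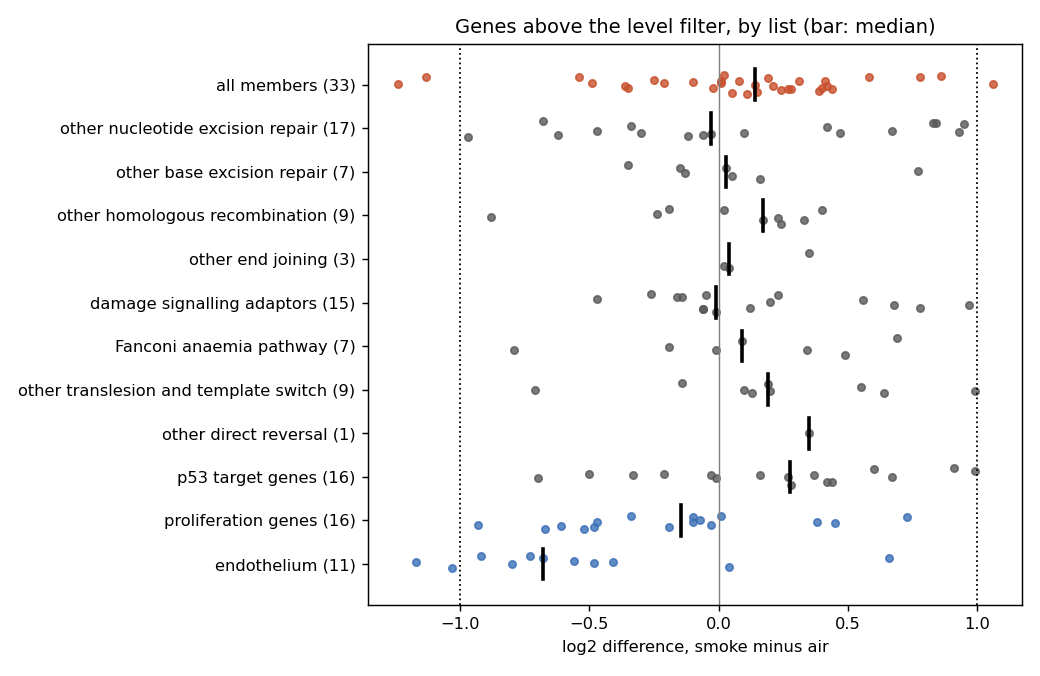
Log2 difference, smoke minus air, of each gene above the level (points, 1 array a group) in the repair genes described above (red), the further pathway lists (grey) and 2 marker lists (blue), with the number of genes in brackets and a bar at each median. Of the pathway genes, 0 of 84 pass the dotted 2-fold lines, and of the 33 Ercc6, Xpa and Chek1 do, beside 6.41% of all genes above the level. Some of the 84 lie just inside the lines, such as Fas and Ube2a (both 0.99) and Rad23b (-0.97). At 1.5-fold 27.4% of the 84 pass and 15.2% of the 33, beside 23.7% of all genes. Proliferation genes (median -0.14) and endothelial markers (-0.68) lie to the left.

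Promoter sequences were searched after the values had been seen. RefSeq windows of 250 bases before to 50 after a start were found for 38 of the 45 genes, 44 windows in all. The E-box CACGTG, the site of CLOCK and BMAL1 and of MYC, was in 9 of the 44 windows (20.5%), each of a different gene, beside 7.15% of all 32851 windows and 9.48% of those of genes above the level. The E2F core TTCCCGC was in 8 windows (18.2%, beside 4.60% and 7.63%). All motifs were searched on both strands, and the shares of the others follow in the same order. TTTGAA, the CHR element of mitotic genes, was in 1 window (2.27%, beside 17.9% and 12.1%). CCAAT was in 21 windows (47.7%, beside 37.4% and 37.6%). The D-box TTATGTAA was in 0 windows (beside 0.938% and 0.471%). The p53 half-site was in 5 windows (11.4%, beside 8.36% and 7.06%). None of these motifs contains another. Such matches describe letters in a window and no binding.

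The E-box sites of measured genes above the level are given with their flanks because Ercc6, the repair gene called higher, holds one. BMAL1 is one of the factors that bind this motif. Its gene Arntl was at 9.91 in air and 6.29 in smoke, Cry1, a repressor of the same complex, at 7.04 and 5.82, and the clock output Dbp at 8.05 and 16.48; these 3 clock genes were chosen after their values were seen and stand for no list. Capitals mark the E-box, and Apex1 has 3; the site of Lig1, in 1 of its 3 windows, and the last 2 of Apex1 lie after the start.
Xrcc5 (chr1:72307211-72307240): tgatgtgtgggaCACGTGgagatcagaggg
Lig1 (chr7:13277199-13277224): gctgtacttgagCACGTGgataagcc
Lig3 (chr11:82781076-82781105): agaacagcgaccCACGTGgcgaccggaggg
Ercc6 (chr14:32513413-32513442): ctttggtcaacgCACGTGgcaaacccttgc
Parp2 (chr14:50807725-50807754): acacgcactcagCACGTGgccccgctgatg
Apex1 (chr14:50924913-50924942): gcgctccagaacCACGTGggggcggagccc
Apex1 (chr14:50924937-50924966): gagccctcgaatCACGTGaccacaccaatc
Apex1 (chr14:50924958-50924987): acaccaatcgccCACGTGggaacaggcaga

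The 6 genes with these sites did not differ alike. Their log2 differences ran from -0.36 (Lig1) to 1.06 (Ercc6), and 5 of the 6 were higher in smoke (4 after quantile normalization or centring by level, Xrcc5 changing sign), beside 54.3% of all genes higher. In Ercc6 the E-box lay at positions -96 to -91 from the start. Xpa, whose message is known to cycle over the day in mouse liver, had no CACGTG letters in the window searched. The hour of collection is not given, and the part of the clock in the differences of Xpa and Ercc6 was not tested.

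Identity of the sorted cells was read from marker lists. Of 12 alveolar type 2 markers, 6, Sftpc and Sftpb among them, were at the highest deposited value of 19.93 on both arrays, where no difference can be measured. The other 6 had a median log2 difference of 0.04, with 4 higher, 1 lower and 1 equal. Epcam, the sorting marker, was at 11.09 and 10.92. Endothelial markers, outside the sort, were all above the level (11 of 11) and 9 of them were lower in smoke, with a median of -0.68 and a summed signal of 15.33 in air and 14.67 in smoke. Alveolar type 1 markers were lower in 8 of 9, with a median of -0.28 (summed signal 18.86 and 18.83). Epithelial markers were lower in 4 of 5, with a median of -0.12 (18.77 and 18.65). These sums rest largely on 1 bright gene each, Ager (18.41 in air, 18.54 in smoke) and Cdh1 (18.75 and 18.63). Neutrophil markers were higher in 5 of 6 above the level (summed signal 9.16 and 9.68). Their median log2 difference was 0.75, and 0.72 after quantile normalization. The first 2 of that list, S100a8 and S100a9, differed by 0.28 and -0.19. Over all genes above the level, 54.3% were higher and 44.7% lower. Macrophage and monocyte markers summed to 11.84 and 11.40, lymphocyte markers to 8.91 and 8.90, fibroblast and smooth muscle markers to 8.72 and 8.57, and club and ciliated markers to 20.03 and 20.01, a sum held in place by its brightest gene (Scgb1a1 being at the highest value on both arrays). Of the 4 club and ciliated markers above the level and under that limit, 3 were lower, with a median of -0.89. Markers at least 2-fold lower in smoke were the airway genes Scgb3a1 (-1.83) and Tppp3 (-1.44), the macrophage gene Chil3 (-1.40), the collagen gene Col1a1 (-1.18), the pericyte receptor gene Pdgfrb (6.09 in air, 5.09 in smoke), the endothelial genes Cldn5 (-1.17) and Eng (-1.03) and the keratin gene Krt8 (-1.11). Fibroblast and smooth muscle markers were split, 3 higher and 4 lower of 7 above the level (4 and 3 after quantile normalization). Their median was -0.05, and Col1a2 was also at -0.05. Markers at least 2-fold higher were Il1r2 of neutrophils (1.12), Cd14 of monocytes (1.06) and Cd3d of T cells (1.03). In air, Il1r2 (4.49) and Cd3d (3.63) were below the level. Of the macrophage and monocyte markers above the level, 1 was higher and 3 lower, with a median of -0.19. Of the lymphocyte markers above it, 2 were higher and 3 lower, with a median of -0.05. The part of these cells in the repair gene signals was not tested.

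**Figure D4:**
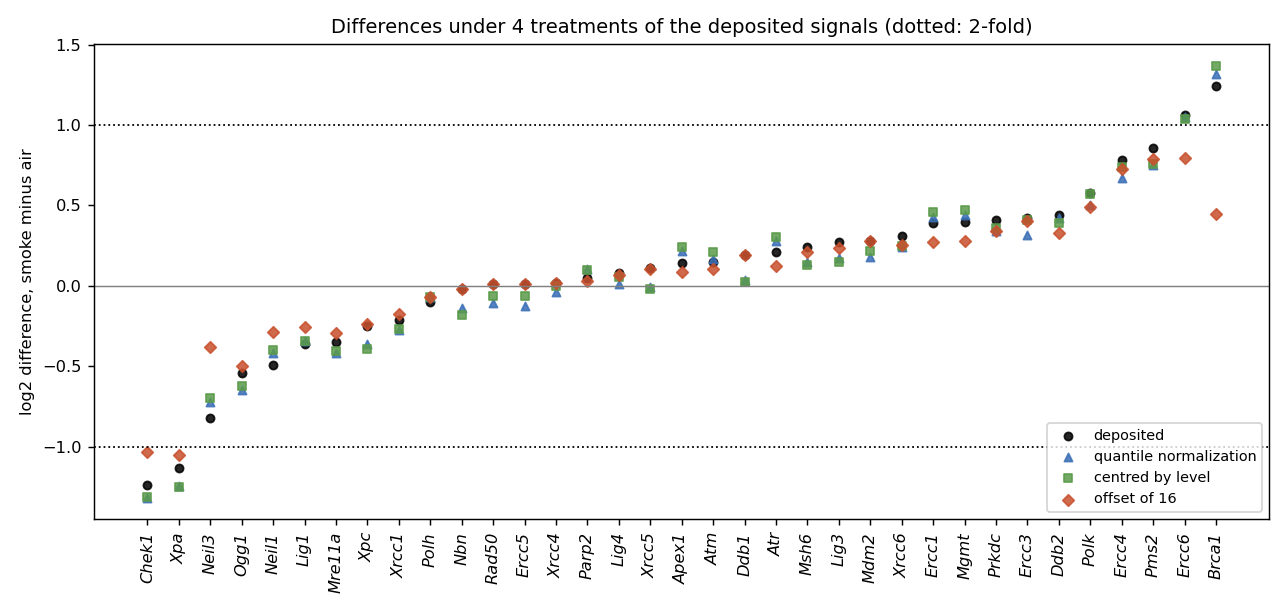
Log2 difference, smoke minus air, of the 33 genes above the level and of Brca1 and Neil3, ordered by the deposited difference, under the deposited signals (circles), quantile normalization (triangles), centring by level (squares) and an offset of 16 on the linear scale (diamonds). Xpa and Chek1 stay beyond the lower dotted 2-fold line in all 4, Ercc6 lies inside with the offset (0.79), and Brca1 is at 1.24 as deposited and 0.44 with the offset.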

How the data were processed

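RNA of sorted lung cells was hybridised to 1 Clariom S Mouse array for air and 1 for smoke. The authors deposited 1 value per probe and array, read here as log2 signal from its range of 1.55 to 19.93; scale, centring and normalization are not stated there. The submitters' processing notes name Transcriptome Analysis Console. The column medians were 4.61 for air and 4.53 for smoke, and the labels give the direction of smoke minus air. Of 22206 probes, 19572 had 1 gene symbol, 0 several and 2634 none; probes of 1 gene were averaged. All 19572 matched RefSeq (GRCm38.p6) by gene number.

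A difference was called at 2-fold with the brighter array at or above 4.57. Genes at 19.93 on both arrays were left out, and fold values hold on the deposited scale only. Repair genes were all named; of other pathway lists, genes past 2-fold or the largest difference, plus Cdkn1a and Gadd45a; of marker lists, those past 2-fold, with some of the first 2 of each list. Members and lists were chosen with earlier results of these data known. The number of arrays limits precision, and no test was possible. Calculations used Python 3.11.15, NumPy 2.4.6 and pandas 2.3.3, tested on simulated data. Alternatives covered normalization, centring, the offset, the level filter, the fold threshold, the mean of the genes and the brightest probe.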

Additional observations from a re-analysis of the deposited data

How the results depend on the processing

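No paired analysis was possible because each group has 1 array. The counts of repair genes past 2-fold were 1 higher and 2 lower; both stayed at these counts under quantile normalization, centring by level and a filter on the mean of both arrays. With the offset of 16, 0 were higher. Without a level filter 2 were higher, Brca1 being added. A filter at the 75th percentile left 11 genes, of which 0 were higher and 1 lower. At 1.5-fold 3 were higher, and at 3-fold 0 were higher and 0 lower. Of the 84 further pathway genes above the level, 0 were past 2-fold in either direction; quantile normalization gave 1 higher and 1 lower, centring by level gave 2 higher and 1 lower, and 1.5-fold gave 16 higher and 7 lower. The median log2 difference of the repair genes, 0.14, lay between 0.08 and 0.13 under the alternatives run, including the mean over genes. The brightest probe changed no repair gene, since each had 1 probe. Of the 33 genes, 29 kept their sign under quantile normalization and 29 under centring, and 33 with the offset. Causes of these shifts, other than the added or removed genes, were not tested. Signal over background could not be read, because no detection calls were used.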
